A study of Mus musculus with 6 samples.

Results

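The genes described here are 51 components of the extracellular matrix, the protein scaffold that cells secrete around themselves, and they were chosen by name as fibrillar collagens (7 genes), collagen VI (3), basement membrane genes (15) and other matrix genes (26). Of these, 47 had at least 1 transcript in the deposited values, out of 11835 genes in all, and all 47 passed the filter on low values. The levels of Col15a1, Eln, Lum and Fmod were not analysed here. Messenger RNA was sequenced from C2C12 cells, a mouse myoblast line that fuses into myotubes when serum is reduced. In the study, 3 samples received a negative control siRNA (siNC) and 3 an siRNA against Cnn3 (siCNN3), and all 6 were differentiated in medium with horse serum. Cnn3 encodes calponin 3, an actin-binding protein, and the comparison asked which transcripts respond when its mRNA is lowered in differentiating muscle cells. The study's methods describe a repeated transfection and a fixed harvest time for differentiating cells, without stating them for the sequenced samples, and its several CNN3 siRNAs are not tied to these samples by name. All cells come from the same established line. The 3 samples of a group carry replicate numbers only, so the p-values measure the spread between these samples, which may be technical.

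Fibrillar collagens assemble into the tension-bearing fibrils of connective tissue, and lysyl oxidases crosslink them. Collagen VI forms beaded filaments between those fibrils and the basement membrane, and inherited defects of its chains cause muscular dystrophies. The basement membrane that sheathes each muscle fibre is built from networks of laminin and collagen IV, which nidogens and heparan sulphate proteoglycans such as perlecan and agrin link together. Fibronectin, thrombospondins, tenascin, osteonectin and small proteoglycans bind cells and growth factors to this scaffold, and myoblasts as well as fibroblasts secrete many of them.

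Values are in FPKM, fragments scaled by the length of the transcript and by the number of mapped fragments, summed over the transcripts of a gene. The summed FPKM of a library ranged from 322621 to 355591, and read numbers were not given, so the depth is unknown. Cnn3 had siNC values of 62.8, 61.4 and 62.8 FPKM and siCNN3 values of 19.0, 39.2 and 25.6 FPKM, that is 44.8% of the siNC mean, with no overlap (log2 fold change -1.19, SE 0.24, limma adjusted p = 0.0669), and without siCNN3 replicate 2 it passed the threshold (adjusted p = 0.0477). The library labelled siCNN3 replicate 3 was about as close to the siNC libraries as to the other siCNN3 libraries. Across 11593 tested genes its log2 values had a Pearson r of 0.947 and 0.956 with the other siCNN3 libraries and of 0.950, 0.941 and 0.951 with the siNC libraries, whereas siCNN3 replicates 1 and 2 had an r of 0.980 with each other. The siNC libraries also differed, with an r of 0.949 between replicates 1 and 2, 0.968 between 1 and 3 and 0.973 between 2 and 3. The cell type label is myotube, and of 25 skeletal muscle markers 18 were listed, with a summed level of 226 to 281 FPKM in siNC and 134 to 147 FPKM in siCNN3, while Myh8, Ttn, Neb, Actc1, Cav3, Myf6 and Pax7 had no listed transcript. Des gave 113 to 125 FPKM of that sum in siNC and 84.3 to 103 FPKM in siCNN3. Each of the other listed markers averaged 28.4 FPKM or less in siNC.

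Most matrix genes had lower values after Cnn3 knockdown, and 5 of them passed the threshold. Collagen VI chains Col6a2 and Col6a3, the fibril-associated collagen Col12a1, the lysyl oxidase Lox and the fibronectin type III domain protein Fndc1 fell. The test was limma on log2(FPKM + 1) over all 11593 genes with a Benjamini-Hochberg adjusted p below 0.05, and 0.336% of all tested genes were called lower. No matrix gene was called higher (limma, 0 of 47, against 1.73% of all tested genes), and 3 had an unadjusted p below 0.05 in that direction, against 9.94% of all genes. In the lower direction 18 of 47 had an unadjusted p below 0.05, against 6.14% of all genes. The log2 fold change was below 0 for 39 of the 47 (83.0%), compared with 46.0% of all tested genes, and this count lay between 36 and 42 of 47 under the other scalings, filters and left-out libraries that kept all 47. All siCNN3 values lay under all siNC values for 17 of the 47 (36.2%), compared with 9.35% of all genes, and above them for 2 of the 47, compared with 13.8% of all genes. The median log2 fold change of the 47 was -0.31 (range -1.88 to 1.55), and that of all tested genes was 0.03. In bulk RNA, fewer cells of a type and less of the RNA in each cell cannot be told apart.

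**Figure D1:**
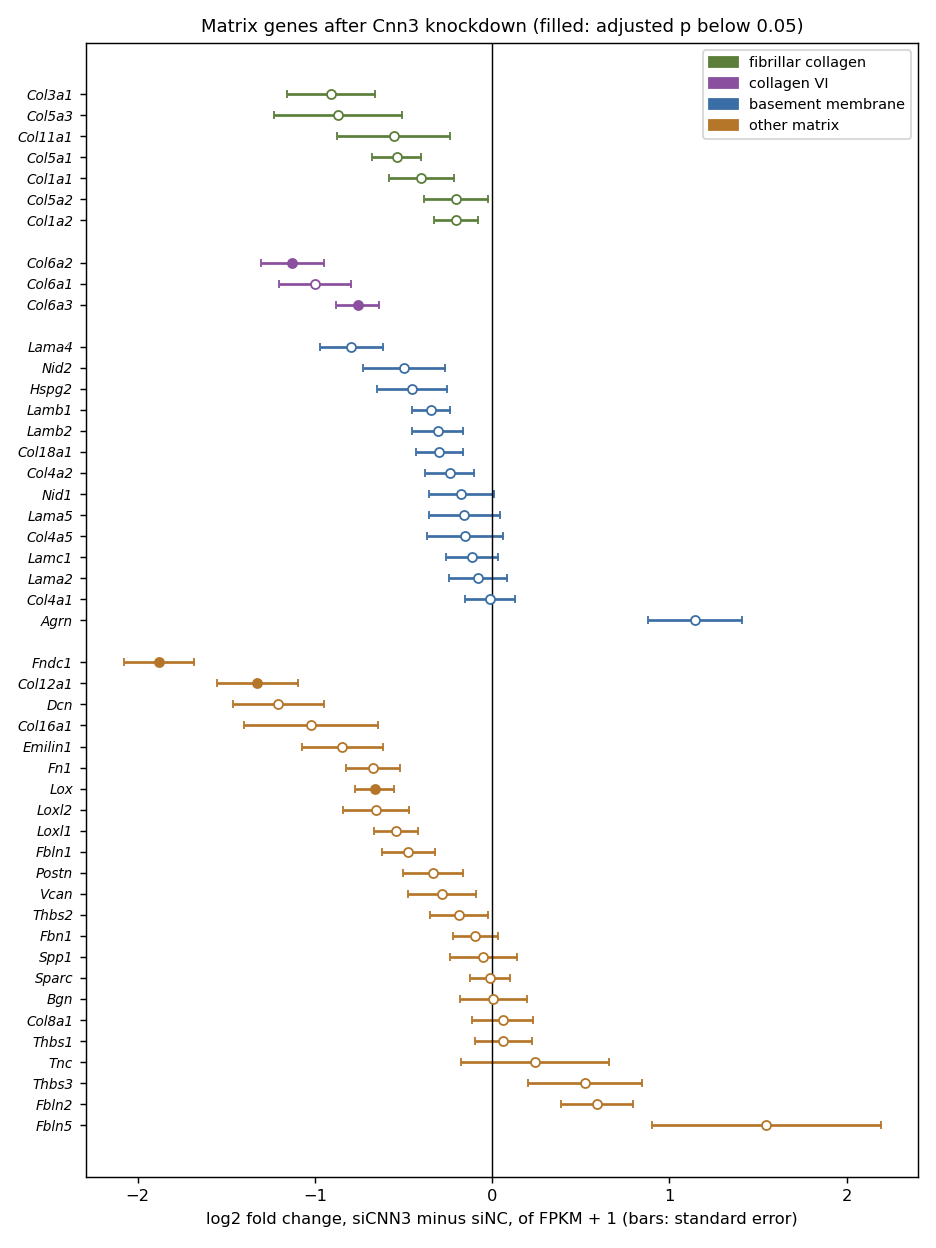
The log2 fold change of FPKM + 1, siCNN3 minus siNC, is plotted for 47 matrix genes in 4 classes, with bars for the standard error and filled points for an adjusted p below 0.05 (n = 3 libraries a group). The 5 filled points lie between -1.88 and -0.66, and 8 genes lie above 0.

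Which genes were called depended on single libraries. The number of matrix genes called lower was 2 without siNC replicate 1 (0.242% of all genes), 1 without siNC replicate 2 (0.173%), 0 without siNC replicate 3 (0.0345%), 1 without siCNN3 replicate 1 (0.0605%) and 0 without siCNN3 replicate 2 (0.0346%). Without siCNN3 replicate 3, where 1.37% of all genes were called lower and 3.82% higher, it was 11, namely Col5a1, Col5a3, Col6a1, Col6a2, Col6a3, Dcn, Fn1, Fndc1, Lama4, Lox and Loxl1, and Fbln5 was then called higher. Over these 6 fits the adjusted p of limma ranged from 0.00209 to 0.0654 for Fndc1, from 0.0264 to 0.151 for Col6a2, from 0.0255 to 0.168 for Col6a3, from 0.0454 to 0.175 for Lox and from 0.0503 to 0.159 for Col12a1. The direction of these 5 genes was the same in all of them. In limma without a trend, where 0.267% of all genes were called lower, Col6a3 (adjusted p = 0.0526), Col12a1 (0.0511) and Lox (0.0759) no longer passed. With the replicate number as a block, where 6 of all 11593 genes were called lower, only Fndc1 of these genes passed. Tested on the most abundant transcript alone, Col6a2 (limma adjusted p = 0.134), Col6a3 (0.108), Col12a1 (0.0657) and Lox (0.0812) did not pass and Fndc1 did. That fit was adjusted over 21658 transcripts, of which 0.0785% were called lower, so its threshold is not that of the gene sums. The log2 fold changes of these 4 transcripts were -1.34, -0.68, -1.51 and -0.69.

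Other transcripts moved with the groups as well. The 17 tested skeletal muscle markers had a log2 fold change of -1.27 as their median, and 9 of them were called lower, against 0.336% of all genes. Of 30 interferon response genes, 21 were called higher, against 1.73% of all genes, and their summed level was 107 to 829 FPKM in siNC and 3856 to 6775 FPKM in siCNN3. Fibroblast and tendon markers (10 of 14 listed) summed to 2121 to 2940 FPKM in siNC and 1823 to 2970 FPKM in siCNN3, and none of the 10 was called (limma, 1 lower and 3 higher at an unadjusted p below 0.05), while Thy1, Dpp4, Tcf21 and Tnmd had no listed transcript. Most of that sum came from its highest genes, S100a4 with 2109 ± 308 FPKM in siNC and 1329 ± 154 FPKM in siCNN3 (without overlap, log2 fold change -0.66, limma adjusted p = 0.0728) and Ly6a with 306 ± 92.2 FPKM and 878 ± 520.1 FPKM (overlapping, 1.36, limma adjusted p = 0.243). Red cell markers (4 of 9 listed) summed to 224 to 653 FPKM in siNC and 49.9 to 72.7 FPKM in siCNN3, and 2 of them were called lower. Endothelial markers (2 of 10 listed) summed to 1.22 to 2.14 FPKM in siNC and 1.85 to 2.34 FPKM in siCNN3, and Pecam1, Cdh5 and Kdr were not listed. Macrophage and leukocyte markers (3 of 11 listed) summed to 20.1 to 27.1 FPKM in siNC and 16.3 to 19.2 FPKM in siCNN3, and Ptprc, Adgre1 and Csf1r were not listed. The part of these genes in the matrix results was not tested.

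Collagen VI had the lowest median of the 4 classes, a log2 fold change of -0.997. Its 3 chains, which join into a single triple-helical monomer, were measured at 235 ± 4.64 FPKM (Col6a1), 58.3 ± 11.6 FPKM (Col6a2) and 66.2 ± 4.19 FPKM (Col6a3) in siNC (mean ± SD, n = 3). Col6a2 and Col6a3 fell and Col6a1 did not pass the threshold. The genes of Col6a1 (chr10:76708792-76726168, minus strand, GRCm38) and Col6a2 (chr10:76595762-76623630, minus strand) lie on the same chromosome, and Col6a3 is at chr1:90765923-90843971, also on the minus strand.

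The promoter sequences of the collagen VI chains and of Fndc1, the gene with the lowest fold change, are shown because these members differed most from siNC by class or by gene. They are from RefSeq (GRCm38.p6), 5′ to 3′ on the gene's strand, and capitals mark matches of either strand to the TATA box TATAAA, the CCAAT box CCAAT, the GC box GGGCGG, the AP-1 site TGANTCA or the E-box CAGCTG. For Col6a2, Col6a3 and Fndc1 they are the 250 bases before a start site at which a listed transcript begins. For Col6a1, whose RefSeq start is 124 bases inside the listed transcript, 30 bases around its AP-1 match are given.
Col6a1, chr10:76726116-76726145: tgctgatgctgTGACTCActcagctttgag
Col6a2, chr10:76623631-76623880: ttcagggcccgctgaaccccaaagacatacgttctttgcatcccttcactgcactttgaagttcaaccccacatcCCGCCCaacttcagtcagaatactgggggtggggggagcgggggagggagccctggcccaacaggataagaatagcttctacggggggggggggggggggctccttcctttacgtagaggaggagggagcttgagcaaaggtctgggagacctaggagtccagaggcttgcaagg
Col6a3, chr1:90843972-90844221: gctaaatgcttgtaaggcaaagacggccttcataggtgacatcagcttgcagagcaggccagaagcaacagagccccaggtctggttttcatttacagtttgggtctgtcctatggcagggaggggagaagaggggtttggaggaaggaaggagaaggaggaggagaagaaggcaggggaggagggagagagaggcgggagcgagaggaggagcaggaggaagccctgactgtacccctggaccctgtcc
Fndc1, chr17:7827303-7827552: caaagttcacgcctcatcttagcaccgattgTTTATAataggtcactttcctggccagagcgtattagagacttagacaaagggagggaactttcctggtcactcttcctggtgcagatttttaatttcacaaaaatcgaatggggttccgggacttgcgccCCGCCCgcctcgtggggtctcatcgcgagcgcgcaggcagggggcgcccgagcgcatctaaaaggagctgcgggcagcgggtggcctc

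In these stretches the AP-1 match of Col6a1 began 90 bases before its RefSeq start and thus lay inside the listed transcript. The GC box of Col6a2 began 175 bases before its start, and Fndc1 had a TATA box match 219 bases and a GC box 88 bases before its start, all 3 on the strand opposite to the gene. The 300 bases of Col6a3 (250 before and 50 after the start) held none of the 5 motifs. A second RefSeq promoter of Col6a2 held 3 GC boxes, of which 1 pair overlapped. The RefSeq promoter table used here had 45 promoters of 37 matrix genes, Fmod among them, and Col12a1 and Lox were not analysed in it. A GC box was in 29 of the 45 (64.4%) and in 35.7% of all 32851 promoters, and a CCAAT box was in 18 of 45 and 37.4% of all. A TATA box was in 7 of 45 and 13.6% of all, an E-box in 8 of 45 and 16.3% of all, and an AP-1 site in 1 of 45 and 7.81% of all. Such a match is a description of the letters only.

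Col6a2 stood at 45.7, 68.5 and 60.6 FPKM with siNC and 23.3, 25.3 and 29.1 FPKM with siCNN3. All 3 siCNN3 values were below the lowest siNC value, and the log2 fold change was -1.13 (SE 0.18, limma adjusted p = 0.0321). Col6a3 measured 62.1, 66.0 and 70.5 FPKM in the siNC libraries and 34.1, 40.6 and 41.7 FPKM in the siCNN3 libraries, again without overlap, with a log2 fold change of -0.76 (SE 0.12, limma adjusted p = 0.0341). Col6a1, the most abundant of the chains, had siNC values of 229.8, 236 and 239 FPKM and siCNN3 values of 95.1, 103 and 164 FPKM. Its siNC values spanned a narrow range and siCNN3 replicate 3 lay between the other siCNN3 libraries and siNC. Its log2 fold change was -0.997 (SE 0.20, limma adjusted p = 0.0669), and without siCNN3 replicate 3 it was -1.24 and passed the threshold. With quantile normalization it was -1.15 and also passed (limma adjusted p = 0.0486). The median of the 3 chains, relative to the siNC mean, was -1.27, -1.15 and -0.65 on the log2 scale in siCNN3 replicates 1, 2 and 3.

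**Figure D2:**
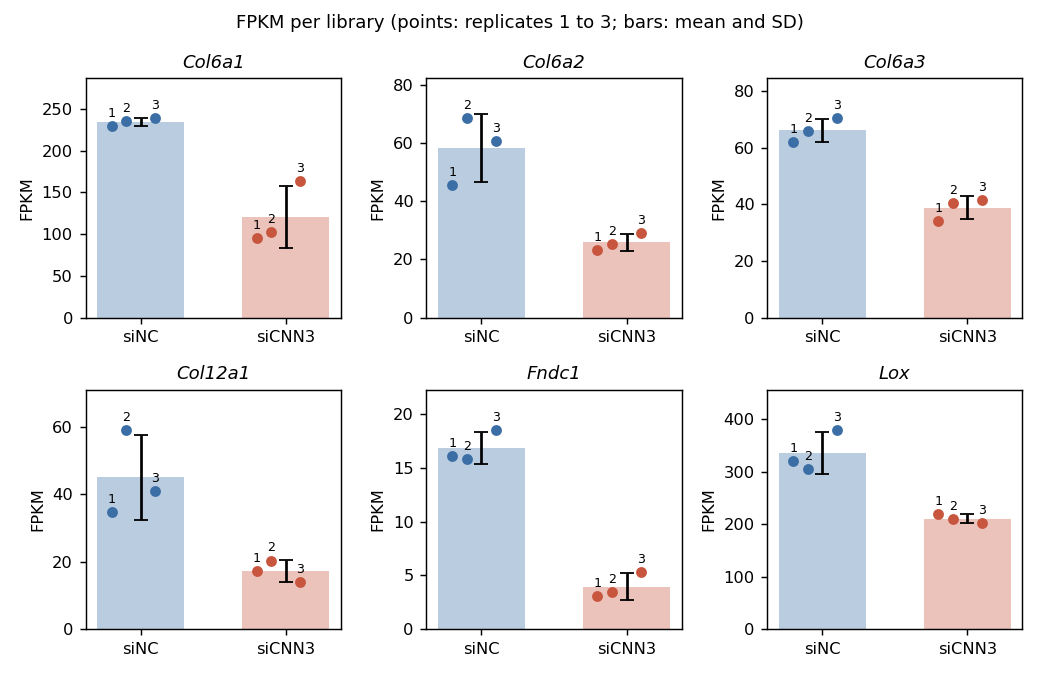
FPKM is plotted for each library (points numbered by replicate) with the mean and SD of each group (bars, n = 3) for Col6a1 and the 5 genes called lower. In each of the 6 panels the siCNN3 points lie below the siNC points, and for Col6a1 siCNN3 replicate 3 is at 164 FPKM against 95.1 and 103 FPKM.

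The largest fall was that of Fndc1 (chr17:7738569-7827302, minus strand), which encodes a protein with fibronectin type III repeats. It stood at 16.2, 15.8 and 18.6 FPKM with siNC and 3.05, 3.42 and 5.34 FPKM with siCNN3. The siCNN3 mean was 23.4% of the siNC mean and the groups did not overlap (log2 fold change -1.88, SE 0.20, limma adjusted p = 0.00990). Col12a1 (chr9:79598991-79718831, minus strand), which decorates the surface of collagen I fibrils, measured 34.9, 59.3 and 41.1 FPKM in the siNC libraries and 17.3, 20.3 and 13.9 FPKM in the siCNN3 libraries. Here siNC replicate 2 was the high library and siCNN3 replicate 3 the lowest, and the fold change was -1.32 on the log2 scale (SE 0.23, limma adjusted p = 0.0428). The remaining collagens were Col16a1, also fibril-associated, with a log2 fold change of -1.02 and overlapping groups (limma adjusted p = 0.251), and Col8a1, a short-chain collagen, with 0.06 (95% confidence interval -0.35 to 0.47), which turned to -0.04 with quantile normalization.

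Lysyl oxidases oxidise lysines of collagen and elastin so that the chains crosslink. Of the 5 in the file, the 3 matrix genes described here (Lox, Loxl1 and Loxl2) were lower in every siCNN3 library than in any siNC library, as were 9.35% of all genes. Lox had siNC values of 319.9, 304 and 380.2 FPKM and siCNN3 values of 219.7, 209 and 202 FPKM, with a log2 fold change of -0.66 (SE 0.11, limma adjusted p = 0.0409). Loxl1 stood at 82.7, 86.3 and 89.7 FPKM with siNC and 53.5, 55.8 and 68.3 FPKM with siCNN3, with -0.54 (SE 0.12, limma adjusted p = 0.0882, and called at -0.65 without siCNN3 replicate 3). The siCNN3 values of Lox had an SD of 8.88 FPKM around a mean of 210.2 FPKM, whereas in Loxl1 siCNN3 replicate 3 was the highest of its group. Loxl2 measured 16.7, 21.8 and 26.3 FPKM in the siNC libraries and 12.2, 14.8 and 12.5 FPKM in the siCNN3 libraries, with -0.65 (SE 0.19, limma adjusted p = 0.144). Only Lox of the 3 was called with all 6 libraries, and the difference between the 3 fold changes was not tested. The other 2 are counted with the genes of collagen synthesis, where Loxl3 rose (log2 fold change 1.21) and Loxl4 had 0.16 with overlapping groups (limma adjusted p = 0.732).

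The 7 fibrillar collagens had log2 fold changes of -0.91 to -0.20 with a median of -0.54, which was -0.35 after the GC and length trend was removed. All 7 were below 0 in each alternative fit that could be made for them, but none was called with all 6 libraries (limma, 0 of 7, against 0.336% of all genes called lower), and an unadjusted p below 0.05 was found for 3 in the lower direction and 0 in the higher, against 6.14% and 9.94% of all genes. Col3a1, the most abundant and the chain of collagen III, had siNC values of 559, 922 and 835 FPKM and siCNN3 values of 484, 449.7 and 297 FPKM. The groups did not overlap, siNC replicate 1 was the lowest of its group and siCNN3 replicate 3 the lowest of all, and the log2 fold change was -0.91 (SE 0.25, limma adjusted p = 0.131). Col5a1, a chain of collagen V, which sets the diameter of collagen I fibrils, stood at 63.7, 62.9 and 69.1 FPKM with siNC and 38.9, 43.2 and 52.7 FPKM with siCNN3, also without overlap, with -0.54 (SE 0.14, limma adjusted p = 0.113), and passed the threshold without siCNN3 replicate 3 (-0.66). Its partner Col5a2 overlapped, with siNC values of 79.5, 122 and 107 FPKM and siCNN3 values of 93.3, 94.3 and 76.4 FPKM and a log2 fold change of -0.21 (limma adjusted p = 0.619). The siNC libraries of Col5a2 spanned the siCNN3 ones except replicate 3.

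Collagen I, the main collagen of connective tissue, had overlapping groups for both chains. Col1a2 measured 294, 383 and 372 FPKM in the siNC libraries and 309.7, 305 and 291 FPKM in the siCNN3 libraries, with a log2 fold change of -0.20 (95% confidence interval -0.49 to 0.09, limma adjusted p = 0.472). Col1a1 had siNC values of 10.6, 8.55 and 12.2 FPKM and siCNN3 values of 7.52, 6.42 and 9.12 FPKM, with -0.40 (limma adjusted p = 0.352). Per length, the level of Col1a1 was thus 0.0304 of that of Col1a2 in siNC, and 1 transcript of Col1a1 was listed. Col5a3, the third chain of collagen V, stood at 80.7, 47.2 and 70.8 FPKM with siNC and 24.0, 29.2 and 60.3 FPKM with siCNN3, so that siCNN3 replicate 3 lay among the siNC values. Its log2 fold change was -0.87 (SE 0.36, limma adjusted p = 0.302), and it was called without siCNN3 replicate 3, at -1.26. Col11a1, a minor fibrillar collagen, was between 0.872 and 3.58 FPKM, with -0.55 (limma adjusted p = 0.444).

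**Figure D3:**
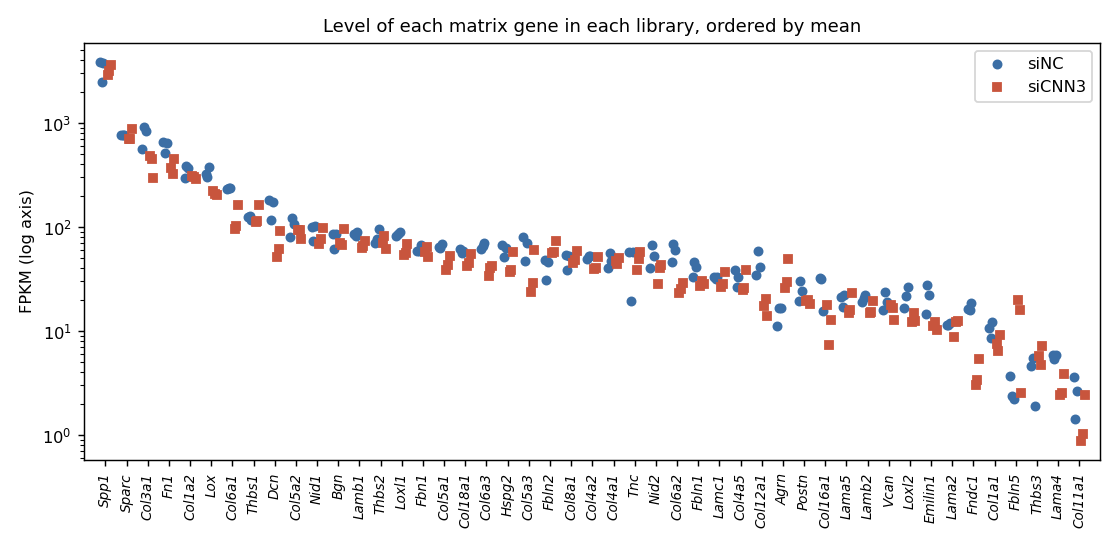
FPKM on a log axis is plotted for 47 matrix genes in each library, ordered by the mean of the 6 libraries, with circles for siNC and squares for siCNN3. Spp1 is highest, at 2467 to 3887 FPKM, and Col11a1 is lowest, at 0.872 to 3.58 FPKM.

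None of the 14 basement membrane genes tested was called (limma with all 6 libraries, against 0.336% of all genes called lower and 1.73% higher), and an unadjusted p below 0.05 was found for 2 in the lower direction and 1 in the higher, against 6.14% and 9.94% of all genes. Their median log2 fold change was -0.21, with -0.11 without siCNN3 replicate 1, -0.36 without siCNN3 replicate 3 and -0.10 after the GC and length trend was removed. Of the 14, 13 were below 0, of which Col4a1, Lama5 and Lamc1 turned above 0 after GC content and length were regressed out of each library. In siCNN3 replicate 3 the median difference from the siNC mean was 0.04, compared with -0.40 and -0.34 in siCNN3 replicates 1 and 2. The collagen IV chains Col4a1 and Col4a2, which form the network of the membrane, were at 40.7, 55.8 and 46.9 FPKM and at 49.3, 52.5 and 53.2 FPKM in siNC. In siCNN3 they were at 47.1, 44.4 and 49.9 FPKM and at 39.6, 40.2 and 52.0 FPKM. Both overlapped, with a log2 fold change of -0.01 (95% confidence interval -0.35 to 0.33) for Col4a1 and of -0.24 (-0.56 to 0.08) for Col4a2. Col4a5 had -0.15 (limma adjusted p = 0.768).

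Among the laminin chains, Lama4 and Lamb1 had siCNN3 values below all siNC values. Lama4, an alpha chain found in the basement membranes of vessels and muscle, measured 5.88, 5.41 and 5.92 FPKM in the siNC libraries and 2.41, 2.54 and 3.85 FPKM in the siCNN3 libraries, with a log2 fold change of -0.79 (SE 0.18, limma adjusted p = 0.0857), and it was called without siCNN3 replicate 3 (-0.95). Lamb1, a beta chain, had siNC values of 85.6, 82.6 and 89.6 FPKM and siCNN3 values of 63.0, 65.8 and 73.8 FPKM, with -0.35 (SE 0.11, limma adjusted p = 0.175). In both, siCNN3 replicate 3 was the nearest to siNC. Lama2, the alpha chain of adult muscle whose loss causes congenital muscular dystrophy, stood at 11.5, 11.5 and 12.0 FPKM with siNC and 8.72, 12.1 and 12.6 FPKM with siCNN3, so that siCNN3 replicate 1 alone was below siNC (log2 fold change -0.08, 95% confidence interval -0.47 to 0.31). It was 0.07 without siCNN3 replicate 1. The beta chain Lamb2 stood at 19.1, 21.0 and 22.0 FPKM with siNC and 15.0, 15.4 and 19.3 FPKM with siCNN3, with -0.31 (limma adjusted p = 0.349). The gamma chain Lamc1, which joins both beta chains, stood at 33.3, 31.8 and 33.4 FPKM with siNC and 26.3, 28.5 and 36.9 FPKM with siCNN3, with -0.11 (limma adjusted p = 0.752). Both overlapped through siCNN3 replicate 3, as did the alpha chain Lama5 (-0.16, limma adjusted p = 0.745).

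The linkers of the membrane had fold changes of both signs, and none was called. Agrn encodes agrin, the proteoglycan by which motor neurons cluster acetylcholine receptors and which also binds laminin. It measured 11.3, 16.6 and 16.5 FPKM in the siNC libraries and 25.8, 29.8 and 48.8 FPKM in the siCNN3 libraries, so that the groups did not overlap and siCNN3 replicate 3 was highest. Its log2 fold change of 1.15 (SE 0.27) did not pass the threshold (limma adjusted p = 0.0902), and it did after GC content and length were regressed out (1.32, limma adjusted p = 0.0400). Col18a1, a collagen with heparan sulphate chains that is the source of endostatin, had siNC values of 60.9, 56.1 and 58.3 FPKM and siCNN3 values of 42.3, 45.2 and 55.6 FPKM, without overlap, with -0.30 (limma adjusted p = 0.329). Hspg2, which encodes perlecan, stood at 66.6, 51.0 and 62.5 FPKM with siNC and 36.7, 38.8 and 57.2 FPKM with siCNN3, with -0.45 (limma adjusted p = 0.326). For these 2 genes, again, siCNN3 replicate 3 was the highest of its group. The nidogens link laminin to collagen IV. Nid1, the most abundant basement membrane gene, had siNC values of 99.0, 74.2 and 102 FPKM and siCNN3 values of 68.4, 77.4 and 98.4 FPKM, with a log2 fold change of -0.17 (limma adjusted p = 0.690). For Nid2 the siNC values were 40.2, 67.2 and 52.4 FPKM and the siCNN3 values 28.5, 40.2 and 43.1 FPKM, with -0.49 (limma adjusted p = 0.355). Both overlapped, and the listed transcripts of Nid2 differed between libraries of a group, as described with the transcripts.

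**Figure D4:**
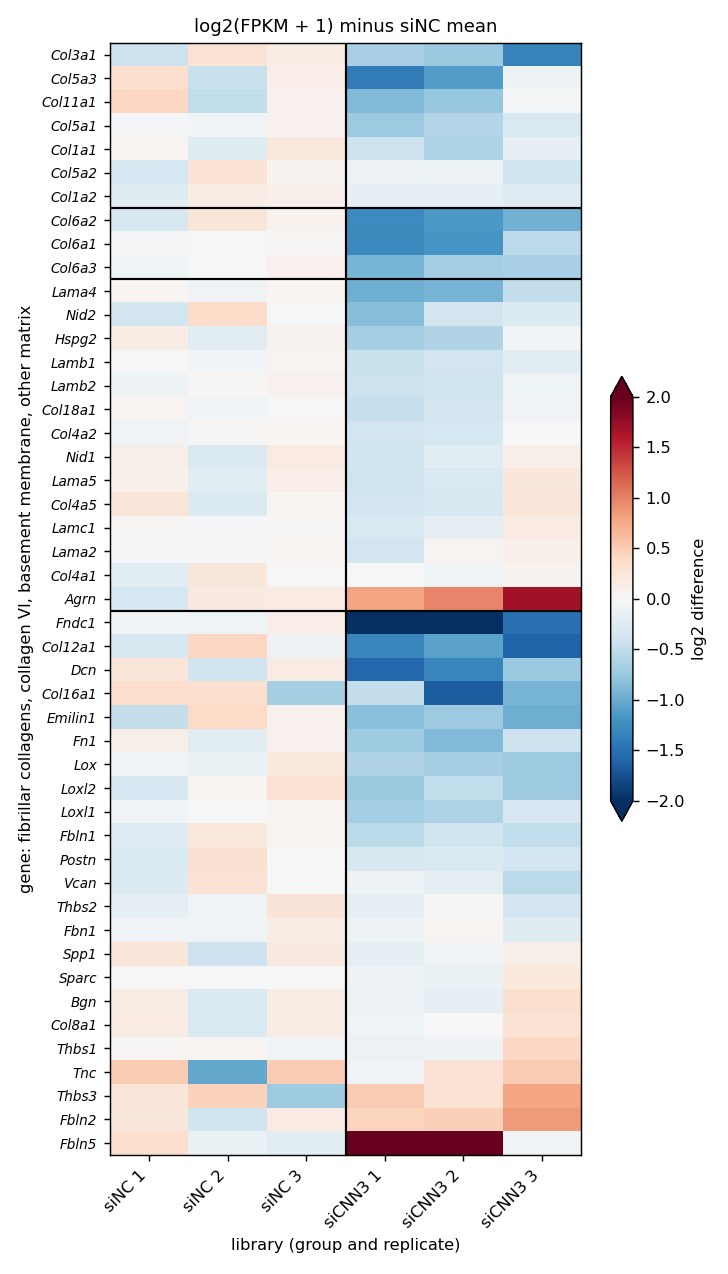
The log2(FPKM + 1) of each matrix gene in each library, minus the mean of the 3 siNC libraries, is shown as a colour from -2 to 2 with blue for lower, and values beyond these ends take the end colour. Rows are the 47 genes by class and fold change. The 3 collagen VI rows are blue in all siCNN3 columns, and in the basement membrane rows siCNN3 replicate 3 is paler, with a median of 0.04 against -0.40 and -0.34.

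The adhesive glycoproteins included the most abundant matrix genes, and their median log2 fold change was -0.05 over the 9 tested. Fn1, which encodes fibronectin, measured 649.9, 516 and 637 FPKM in the siNC libraries and 366, 322 and 447 FPKM in the siCNN3 libraries. All siCNN3 values were below all siNC values, and the log2 fold change was -0.67 (SE 0.15, limma adjusted p = 0.0873), which passed the threshold without siCNN3 replicate 3 (-0.80). Spp1, which encodes osteopontin, a secreted ligand of integrins, was the highest matrix gene, at 3887, 2467 and 3752 FPKM in siNC and 2868, 3160.0 and 3582 FPKM in siCNN3. The groups overlapped, and the log2 fold change of -0.05 (95% confidence interval -0.50 to 0.40) turned to 0.29 with quantile normalization. Sparc, the gene of osteonectin, had siNC values of 765, 766 and 763 FPKM and siCNN3 values of 709, 694 and 884 FPKM, with -0.01 (95% confidence interval -0.28 to 0.26). The siNC libraries of Sparc were close together and siCNN3 replicate 3 was above them. Thbs1 (0.06), Thbs2 (-0.19), Thbs3 (0.52), Tnc (0.24) and Postn (-0.33) had log2 fold changes with a limma adjusted p between 0.389 and 0.883, and Thbs1 turned to -0.08 with quantile normalization. Tnc turned to -0.27 without siNC replicate 2, and Thbs3 was 0.17 without siNC replicate 3. With each library left out, Thbs2 ranged from -0.29 to -0.058 and Postn from -0.48 to -0.18.

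Of the small and large proteoglycans, decorin had the largest difference. Dcn stood at 183, 118 and 173 FPKM with siNC and 51.6, 62.0 and 92.4 FPKM with siCNN3, without overlap, with a log2 fold change of -1.21 (SE 0.26, limma adjusted p = 0.0751) that passed the threshold without siCNN3 replicate 3 (-1.44). Bgn, the gene of biglycan, a close relative of decorin, measured 85.1, 62.0 and 85.3 FPKM in the siNC libraries and 70.9, 66.9 and 96.4 FPKM in the siCNN3 libraries. These ranges overlapped, and its log2 fold change of 0.01 (95% confidence interval -0.44 to 0.46) was -0.11 with quantile normalization. Vcan, the large proteoglycan versican, had -0.28 (limma adjusted p = 0.519).

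Elastic fibre genes were spread around 0, with a median of -0.09 over the 5 tested. Emilin1, an elastin-associated glycoprotein, had siNC values of 14.7, 27.5 and 22.3 FPKM and siCNN3 values of 11.2, 12.3 and 10.1 FPKM, without overlap (log2 fold change -0.85, SE 0.23, limma adjusted p = 0.128). Fbn1, which encodes fibrillin 1, had -0.09 (95% confidence interval -0.39 to 0.20) and 0.05 after the GC and length trend was removed. The 3 fibulins, adapters between elastic fibres, basement membranes and cells, differed in sign. Fbln2 stood at 48.0, 30.7 and 45.7 FPKM with siNC and 55.9, 57.3 and 74.0 FPKM with siCNN3, all above siNC, with 0.59 (SE 0.20, limma adjusted p = 0.216). Fbln5 measured 3.66, 2.36 and 2.20 FPKM in the siNC libraries and 19.9, 16.0 and 2.51 FPKM in the siCNN3 libraries. Its high values were those of siCNN3 replicates 1 and 2, and replicate 3 lay among the siNC values (log2 fold change 1.55, SE 0.64, limma adjusted p = 0.305, and 2.36 with adjusted p = 0.00521 without siCNN3 replicate 3).

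Fbln1 had siNC values of 33.1, 46.6 and 41.6 FPKM and siCNN3 values of 27.4, 30.3 and 28.1 FPKM (log2 fold change -0.47, SE 0.15, limma adjusted p = 0.184), and its transcripts differed. It was picked for this after its values were seen, as the only member with a called transcript and an uncalled sum. Fbln1-201 (ENSMUST00000057410.13) stood at 13.4, 18.0 and 17.4 FPKM with siNC and 6.63, 5.42 and 6.11 FPKM with siCNN3, with a log2 fold change of -1.29 (limma adjusted p = 0.0490 over all tested transcripts). Fbln1-202 (ENSMUST00000109432.3) measured 19.7, 28.6 and 24.1 FPKM in the siNC libraries and 20.7, 24.8 and 22.0 FPKM in the siCNN3 libraries, with -0.08 (limma adjusted p = 0.893). Fbln1-201 made up 40.5%, 38.7% and 41.9% of the Fbln1 level in siNC and 24.2%, 17.9% and 21.7% in siCNN3, without overlap. In all, 14 of the 90 transcript shares of genes with more than 1 listed transcript did not overlap between the groups, against 11.3% of such shares over all genes, and they belonged to 7 genes (Col3a1, Col6a3, Fbln1, Fn1, Fndc1, Postn and Spp1). Among these, 1 transcript of Fn1 made up a mean of 2.96% of the Fn1 level with siNC and 0.460% with siCNN3, and 1 of Spp1 a mean of 12.2% and 8.30% of the Spp1 level (n = 3).

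Of 108 listed transcripts of the matrix genes, 104 were tested, and 2 were called lower, the other being Fndc1-202 (ENSMUST00000097425.9, log2 fold change -1.74, limma adjusted p = 0.0340), while 0.0785% of all tested transcripts were called lower. In 5 of the 29 genes with more than 1 listed transcript (Col16a1, Fbln5, Nid2, Sparc and Thbs3), the share of a transcript ranged over more than 50 percentage points between libraries of a group. In Sparc that range reached 83.7 points within siNC although the gene sum stayed at 763 to 766 FPKM. Of the 2 listed transcripts of Nid2, Nid2-203 was at 0, 52.5 and 37.4 FPKM in the siNC libraries, and its siCNN3 values were 0.195 FPKM or less. Nid2-201 was at 40.2, 14.8 and 14.9 FPKM in the same siNC libraries. Without Nid2-203 the log2 fold change of Nid2 was 0.79 instead of -0.49. Removing it lowers the Nid2 level in siNC replicates 2 and 3 and hardly in siCNN3, so this turn is no evidence of a rise of Nid2. Most of the Fbln5 level in siCNN3 replicates 1 and 2 came from Fbln5-203, at 18.2 and 13.9 FPKM, which was at 0.0496 FPKM in siCNN3 replicate 3.

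Ratios between chains were compared within each library to ask whether partners of a molecule or family kept their proportion. For 8 ratios the exact two-sided permutation test of 3 against 3 gave p from 0.1, its smallest possible value, to 0.8, and adjusted over the 8 ratios the smallest p was 0.4. Col6a3 to Col6a2 was 1.36, 0.963 and 1.16 in siNC and 1.47, 1.60 and 1.44 in siCNN3, so that every siCNN3 value was above every siNC value and the group means of the log2 ratio differed by 0.38 (exact p = 0.1, adjusted p = 0.4). Lamb1 to Lamc1 was 2.57, 2.60 and 2.68 in siNC and 2.39, 2.31 and 2.00 in siCNN3, lower in every siCNN3 library, with a difference of -0.23 between the group means of the log2 ratio (exact p = 0.1, adjusted p = 0.4). These 2 pairs were the ones without overlap in the values as deposited. Col6a1 to Col6a2 was 4.14 ± 0.812 in siNC and 4.60 ± 0.898 in siCNN3 (SD, n = 3, exact p = 0.5), Col1a1 to Col1a2 was 0.0304 ± 0.00721 and 0.0256 ± 0.00530 (exact p = 0.4, n = 3), and Col5a1 to Col5a2 was 0.655 ± 0.143 and 0.522 ± 0.148 (exact p = 0.3, n = 3). Col4a1 to Col4a2 was 0.923 ± 0.125 and 1.09 ± 0.116 (exact p = 0.2, n = 3), Lamb1 to Lamb2 was 4.17 ± 0.285 and 4.10 ± 0.246 (exact p = 0.8, n = 3), and Nid1 to Nid2 was 1.84 ± 0.686 and 2.20 ± 0.249 (exact p = 0.7, n = 3). With transcripts left out that were listed at 0 in a library beside 10 FPKM or higher in another of its group (failed zeros), the log2 difference of Nid1 to Nid2 turned from 0.33 to -0.998 (exact p = 0.1), without overlap. That removes Nid2-203, which made up 78.0% and 71.5% of the Nid2 level in siNC replicates 2 and 3. In siCNN3 it made up 0.452% or less. The turn follows from removing that transcript and is no evidence that the ratio changed sign. With each library left out the log2 difference was 0.0015 to 0.58.

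**Figure D5:**
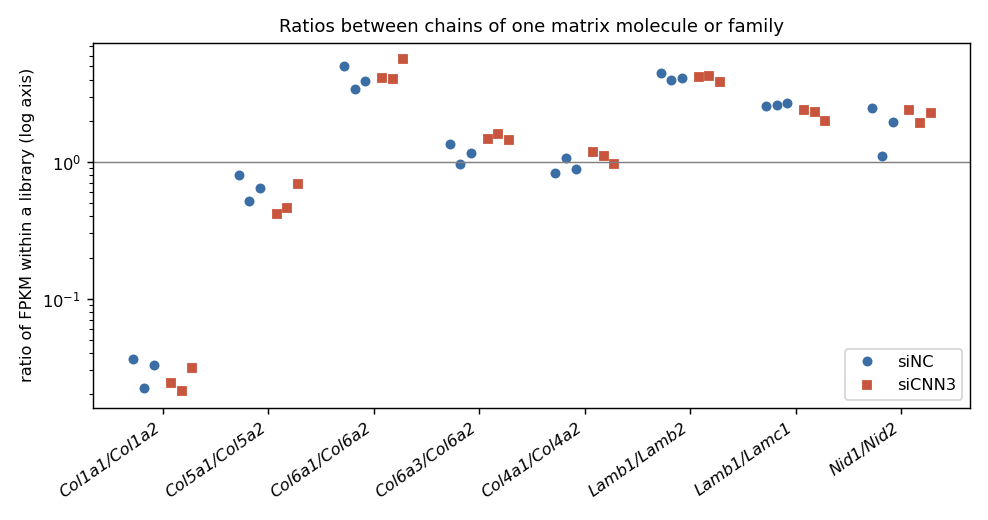
The ratio of the FPKM of the named genes is plotted on a log axis for each library, with circles for siNC, squares for siCNN3 and a line at 1. The siCNN3 points of Col6a3/Col6a2 lie above the siNC points and those of Lamb1/Lamc1 below them, and the other 6 ratios overlap.

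The summed level of each class was compared in the same way, with 5 sums. Collagen VI summed to 338, 370.2 and 370.0 FPKM in siNC and to 152.5, 169 and 235 FPKM in siCNN3, and its siCNN3 mean was 51.6% of the siNC mean (exact two-sided permutation p = 0.1, adjusted p = 0.25). The fibrillar collagens summed to 1369 ± 244 FPKM with siNC and 892 ± 90.6 FPKM with siCNN3 (SD, n = 3), or 65.2%, also without overlap (exact p = 0.1, adjusted p = 0.25). Basement membrane genes summed to 587 ± 20.8 FPKM and 513 ± 88.8 FPKM (SD, n = 3), or 87.3%, with overlap (exact p = 0.4, adjusted p = 0.4), and the difference of -74.6 FPKM was -39.9 FPKM without siCNN3 replicate 1, -125 FPKM without siCNN3 replicate 3, -44.7 FPKM with failed zeros left out and -116 FPKM with quantile normalization. The other matrix genes summed to 6014 ± 936 FPKM and 5321 ± 570.4 FPKM (SD, n = 3), or 88.5%, with overlap (exact p = 0.3, adjusted p = 0.375), and their difference of -693 FPKM was -67.4 FPKM with quantile normalization, -411 FPKM without siNC replicate 1, -1233 FPKM without siNC replicate 2 and -435 FPKM without siNC replicate 3. In a further sum chosen after the values were seen, that class without Spp1 came to 2645 ± 161 FPKM in siNC and 2117 ± 228 FPKM in siCNN3, without overlap (exact p = 0.1, n = 3). All 47 genes together summed to 8329 ± 811 FPKM with siNC against 6911 ± 612 FPKM with siCNN3 (SD, n = 3), or 83.0%, with overlap (exact p = 0.2, adjusted p = 0.333), and the difference of -1418 FPKM was -912 FPKM with quantile normalization. They took 2.12% to 2.67% of the FPKM of a siNC library and 1.81% to 2.16% of that of a siCNN3 library.

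The position of siCNN3 replicate 3 recurred across members. It held the highest value of its group in 33 of the 47 (70.2%), compared with 38.0% of all tested genes, and siCNN3 replicate 1 held the lowest in 29 of the 47 (61.7%), compared with 31.9% of all genes. In 11 of the 47, among them Col3a1, Col12a1, Emilin1 and Lox, siCNN3 replicate 3 held the lowest value of its group, compared with 48.4% of all genes. Within siNC, replicate 2 held the lowest value in 23 of the 47 (48.9%), compared with 28.1% of all genes. The median of the 47 genes, relative to the siNC mean, was -0.42, -0.36 and -0.22 on the log2 scale in siCNN3 replicates 1, 2 and 3, and -0.02, -0.04 and 0.08 in siNC. The same medians for the interferon response genes were 4.32, 4.32 and 3.28 in siCNN3, and for the skeletal muscle markers -1.44, -1.44 and -1.15. Without siCNN3 replicate 3 the median log2 fold change of the 47 was -0.41, compared with -0.31 with all libraries.

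Genes that act before and after matrix secretion were counted in the same fit, and their counts stand beside the shares over all tested genes, of which 46.0% were below 0, 0.336% were called lower, 1.73% were called higher, and 6.14% were lower and 9.94% higher at an unadjusted p below 0.05. Of 33 genes of collagen synthesis and processing (prolyl and lysyl hydroxylases, procollagen proteinases, chaperones and export factors), 30 were tested, 17 of them were below 0, the median log2 fold change was -0.09, and 0 were called lower and 1 higher by limma, with 3 of 30 in each direction at an unadjusted p below 0.05, near the shares over all genes. The called gene was Loxl3, a further lysyl oxidase, with siNC values of 18.6, 22.1 and 21.5 FPKM and siCNN3 values of 56.3, 56.2 and 37.5 FPKM. It rose in every siCNN3 library (log2 fold change 1.21, SE 0.18, limma adjusted p = 0.0304), in contrast to the values of Lox, Loxl1 and Loxl2. In this list 0 genes were called higher when any library except siCNN3 replicate 3 was left out. Plod3, a lysyl hydroxylase, had 0.41 (limma adjusted p = 0.174) and Sec24d, a coat protein of the vesicles that export procollagen, had -0.36 (limma adjusted p = 0.226), each without overlap.

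Of 31 matrix receptors (integrins, syndecans, dystroglycan and others), 24 were tested, 16 were below 0 with a median of -0.14, and 0 were called lower and 1 higher by limma, with 6 lower and 1 higher at an unadjusted p below 0.05. Sdc3, a syndecan of muscle and nerve cells that carries heparan sulphate, rose from 7.95, 8.06 and 7.96 FPKM in siNC to 23.7, 22.7 and 17.4 FPKM in siCNN3 (log2 fold change 1.30, SE 0.15, limma adjusted p = 0.0141). The groups did not overlap and siCNN3 replicate 3 was the lowest of its group. The list had 0 genes called higher when siNC replicate 3 or the siCNN3 replicates 1 or 2 were left out (16, 39 and 28 of all genes). It had 2 called lower without siCNN3 replicate 3, where 1.37% of all genes were called lower. Sdc2, a relative of Sdc3, had -0.50 (limma adjusted p = 0.0932) and the integrin chain Itgb4 -0.74 (limma adjusted p = 0.231). Of 21 genes of the transforming growth factor beta pathway and its targets, which drive collagen synthesis in many cells, 20 were tested and 0 were called in either direction by limma, with 2 lower and 4 higher at an unadjusted p below 0.05, 7 below 0 and a median of 0.10. Without siCNN3 replicate 3, 1 was called higher, as were 3.82% of all genes. The smallest p-values were those of Skil, an inhibitor of Smad signaling (log2 fold change 1.22, limma adjusted p = 0.0832), Ltbp1, which stores the latent ligand in the matrix (0.50, limma adjusted p = 0.109), and the receptor Tgfbr2 (-0.59, limma adjusted p = 0.110).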

How the data were processed

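Messenger RNA of 3 siNC and 3 siCNN3 samples of C2C12 cells was measured, and groups and replicate numbers were taken from the labels. The authors deposited FPKM for 24023 Ensembl transcripts in each library. The submitters' processing notes name Bowtie 0.12.2 and the builds mm8 and mm10 without a role, and the program that estimated FPKM and its annotation were not given in the sources used here. Values went down to 1e-06 FPKM, so reads could not be recovered and the depth of each sample, and with it counting error, is unknown. FPKM is relative to the total of a library, so shares and not amounts of RNA are compared.

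Identifiers were matched without version to GENCODE vM21 (GRCm38), for 23949 transcripts, and 74 were left out. FPKM were summed for 11835 genes, of which 6066 have more than 1 transcript, and a listed 0 may be a failed estimate (235 transcripts had a 0 beside a value of 10 FPKM or higher within their group). A gene was tested where its 6 libraries averaged 0.5 FPKM or higher. log2(FPKM + 1) went into limma (version 3.58.1, R 4.3.3) as a two-sided moderated test with a trend of the variance on the mean, adjusted by Benjamini-Hochberg over 11593 genes with a threshold of 0.05. Fold changes are on this scale, which understates those of low genes. Single ratios and sums were compared by an exact two-sided permutation test of 3 against 3, whose smallest p is 0.1. The fit was tested on simulated data. Other software was Python 3.11.15, scipy 1.17.1, numpy 2.4.6, pandas 2.3.3 and matplotlib 3.10.9.

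The members and lists were chosen with earlier results of these data known, and no list was tested as a set. Values per library are printed for called members, for the 3 with the highest mean and the 3 with the smallest p in each class and for their partner chains, and of each related list at most the 3 genes with the smallest p are named, besides Des, Loxl4, S100a4 and Ly6a, which were chosen after their values were seen. Further members with values per library were chosen after these were seen. Alternatives were a pseudocount of 0.1, quantile normalization, a filter at 5 FPKM or none, a replicate block, median-of-ratios scaling, limma without a trend, removal of failed zeros, regression of each library on GC content and length (splines with 4 degrees of freedom), each transcript tested on its own, and each library left out.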

Additional observations from a re-analysis of the deposited data

How the results depend on the processing

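Of the 47 matrix genes, 31 were below 0 and 4 above 0 in all 15 alternative fits that could be made for them, and 12 turned in at least 1 alternative. Over single genes and alternatives, 678 values were on the same side of 0 and of the threshold, 33 lost their call, 10 gained one and 28 turned. The number called lower was 6 with quantile normalization (92 of all tested genes), 1 with the replicate block (6 of all) and 2 in limma without trend (31 of all). With each library left out it was 0 to 11 (4 to 159 of all). The number called higher was 1 with the GC and length trend removed (203 of all) and 0 to 1 with each library left out (16 to 443 of all). With the replicate block Col6a2 (limma adjusted p = 0.0621), Col6a3 (0.0992), Col12a1 (0.0557) and Lox (0.138) did not pass and Fndc1 did. The cause of these shifts was not tested. The median log2 fold change of the members was -0.41 with quantile normalization and -0.41 to -0.29 with each library left out, that of the fibrillar collagens -0.35 with the GC and length trend removed, and that of other matrix genes -0.42 to -0.15 with each library left out. Cnn3 ranged from -1.46 to -0.95 with each library left out.

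Collagen synthesis genes had 1 called lower with the GC and length trend removed, 0 called higher with the replicate block and 0 to 1 called higher with each library left out. Matrix receptors had 0 called higher with the replicate block, 0 to 1 called higher and 0 to 2 called lower with each library left out. The pathway of transforming growth factor beta had 1 called lower with quantile normalization and 0 to 1 called higher with each library left out. The ratio of Nid1 to Nid2 differed by -0.998 (log2) instead of 0.33 without failed zeros. With each library left out, Col6a1 to Col6a2 differed by -0.0020 to 0.30 and Lamb1 to Lamb2 by -0.0652 to 0.0287.

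Genes that turned were Col4a1 (0.15), Lama5 (0.0690), Lamc1 (0.0040), Fbn1 (0.0454) and Bgn (-0.0752) with the GC and length trend removed, and Col8a1 (-0.0372), Spp1 (0.29), Thbs1 (-0.0800) and Bgn (-0.11) with quantile normalization. Bgn was -0.0290 with median-of-ratios scaling, and Nid2 was 0.79 without failed zeros. On their most abundant transcript alone, Nid2 was 0.79, Sparc 0.0044 and Spp1 0.0174. With each library left out, the range was -0.12 to 0.11 for Col4a1, -0.17 to 0.0749 for Lama2, -0.0936 to 0.14 for Col8a1, -0.12 to 0.0506 for Sparc, -0.26 to 0.0685 for Spp1, -0.27 to 0.50 for Tnc, -0.11 to 0.15 for Thbs1 and -0.15 to 0.11 for Bgn.

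Over all genes, 39 were called lower and 200 higher. The counts were 92 and 199 with quantile normalization, 90 and 203 with the GC and length trend removed, 63 and 219 with median-of-ratios scaling, 6 and 62 with the replicate block, and 4 to 159 lower and 16 to 443 higher with each library left out. Deviations from the group means of siNC and siCNN3 samples with the same number had a correlation of -0.28, 0.31 and -0.02 across genes. Between different numbers the correlation ranged from -0.45 to 0.44. Of the 6 libraries, 1 correlated best with its own number, and siNC replicate 2 nearly did (0.314 against 0.315 with siCNN3 replicate 1). With 3 libraries a group these values cannot tell whether the samples were paired. The labels give a number only, so the replicate block is an alternative only. Without the depth, counting error could not be judged for genes at low levels such as Col11a1.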
